A study of Mus musculus with 6 samples.

Results

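AP-1 is a family of transcription factors that work as pairs, and 8 of its genes are described here. The samples are mouse cells labelled as CD4+ T cells, stimulated a second time through CD3 with or without ICOS. The genes were chosen by name as the Jun family (Jun, Junb, Jund), the Fos family (Fos, Fosb, Fosl1, Fosl2) and the related Batf. All 8 were measured, each by 1 probe set that carried its symbol alone, among 19937 genes in all. The cells of every group were described as naive CD4+ T cells of B6 spleen. They were stimulated for 2 days with antibodies to CD3 and CD28, then left to rest overnight. They were next coated for 20 min either with antibodies to CD3 and ICOS together (2 arrays, replicates 1 and 2) or with antibody to CD3 alone (4 arrays, replicates 1 to 4), and the antibodies were cross-linked with goat anti-hamster antibody for 8 h. ICOS is a costimulatory receptor of activated T cells. Both groups received anti-CD3, and no array of resting cells or of anti-ICOS alone was analysed here, so the data compare 2 kinds of stimulation at 8 h and give no level before it. Per the labels these are biological replicates, but no animal or culture is named, so p-values cover only the spread among these 6 arrays.

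Jun and Fos proteins bind DNA through a basic region and pair through a leucine zipper. Jun proteins can pair with each other or with Fos proteins, whereas Fos proteins need a Jun partner. Batf has the zipper but no transactivation domain of its own, and in T cells it binds with a Jun protein and IRF4 at composite sites. Signals from the T cell receptor and CD28 raise AP-1 activity through MAP kinases, and AP-1 acts with NFAT at cytokine genes such as Il2. Transcripts of Fos and Fosb are known for a brief burst after stimulation.

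The letters just before the start of Jun, Junb and Fosl2 are shown because Jun and Fosl2 had the largest differences between the groups, and Junb is the close relative of Jun that differed less. Each run is the 250 bases before the gene's start in RefSeq on GRCm38.p6, 5′ to 3′ on the gene's own strand. Capitals mark matches to 6 motifs searched on both strands, which were the CArG box, the MEF2 site, the kappaB site and 3 AP-1 or CRE motifs. Of these last, TGACTCA is the classical AP-1 site. The longer TGACNTCA takes in the related CRE-like sites. The short core TGACG can lie inside a CRE-like site. RefSeq sequences were found for 7 of the 8 genes, all but Fosl1. The windows lie at chr4:95052223-95052472 (minus strand) for Jun, chr8:84978749-84978998 (minus strand) for Junb and chr5:32136222-32136471 (plus strand) for Fosl2.
Jun: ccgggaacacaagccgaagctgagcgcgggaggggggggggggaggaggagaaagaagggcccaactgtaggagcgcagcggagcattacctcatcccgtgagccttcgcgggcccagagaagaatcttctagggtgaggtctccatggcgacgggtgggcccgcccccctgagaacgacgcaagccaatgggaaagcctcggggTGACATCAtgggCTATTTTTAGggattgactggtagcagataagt
Junb: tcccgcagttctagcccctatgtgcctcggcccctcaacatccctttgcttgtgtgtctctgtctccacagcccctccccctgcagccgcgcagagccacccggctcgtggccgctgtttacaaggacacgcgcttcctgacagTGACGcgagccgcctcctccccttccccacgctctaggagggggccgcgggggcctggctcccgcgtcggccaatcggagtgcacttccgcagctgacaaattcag
Fosl2: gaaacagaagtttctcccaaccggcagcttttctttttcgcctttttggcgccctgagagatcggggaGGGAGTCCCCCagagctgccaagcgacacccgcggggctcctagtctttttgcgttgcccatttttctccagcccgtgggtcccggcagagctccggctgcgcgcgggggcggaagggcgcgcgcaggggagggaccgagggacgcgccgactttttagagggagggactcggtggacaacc
The Jun window held TGACATCA, which begins 45 bases before the start, and a MEF2 site that begins 33 bases before it. Of the 7 windows 1 held TGACNTCA and 1 a MEF2 site, both of them Jun, while 7.49% and 2.92% of 32851 RefSeq windows of the same length held these motifs. TGACG occurred in 4 of the 7 (Junb, Fos, Fosb and Batf), against 17.8% of all windows, and a kappaB site in 3 (Fos, Fosb and Fosl2), against 3.90%. In Fosl2 the capitals cover overlapping kappaB matches. TGACTCA and the CArG box, present in 4.46% and 1.47% of all windows, had no match in these 7. Bases outside the 250 were not searched, so sites farther from the start would be missed. A match describes these letters only.

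The deposited intensities had medians between 108.9 and 114.0 on the 6 arrays, and values are given as log2(intensity + 16) unless stated. Anti-CD3 replicate 4 lay above replicates 1 to 3 in 34.5% of genes and below them in 42.5%, so it is shown apart below. Any array of 4 is highest or lowest in some genes, and the shares of the other anti-CD3 arrays were not taken. Without replicate 4, 5930 genes passed the limma test (adjusted p under 0.05), against 54 with all 6 arrays. Leaving out anti-CD3 replicate 1, 2 or 3 in its place gave 18, 16 and 20. The groups did not overlap in 63.6% of genes without replicate 4, and in 25.3%, 26.0% and 27.0% without replicates 1, 2 and 3. Replicate 4 thus departed from its group more than the other anti-CD3 arrays did. In some genes given below, such as Itch and Mt2, replicate 4 lay near the anti-ICOS arrays, and in others, such as Nfil3, near replicates 1 to 3. The labels do not say why, so neither set of anti-CD3 arrays can be taken as the typical one. The T cell receptor gene Cd3e read 12.40 and 12.43 with anti-CD3 plus anti-ICOS and 12.75, 12.81, 12.72 and 12.45 in anti-CD3 replicates 1 to 4. Its difference was -0.27, whereas those of the other CD3 genes, Cd3d and Cd3g, were -0.033 and -0.01. Those of Cd4, Cd28 and Cd5 were -0.33, -0.28 and -0.11. In 4 of the 6 measured T cell genes the anti-ICOS pair fell short of the anti-CD3 group, against 14.7% of all genes. It exceeded the group in 0, against 8.51%. The B cell gene Ms4a1 read 11.67 and 11.80 with anti-CD3 plus anti-ICOS and 11.52, 11.51, 11.36 and 11.81 with anti-CD3. Its difference was 0.19, with 0.16 and 0.24 for Cd79b and Pax5 but -0.087 and -0.037 for Cd79a and Cd22. The CD8 chain gene Cd8b1 read 11.67 and 11.70 against 11.56, 11.56, 11.49 and 11.76. No listed marker was at 0. Summed over 6 measured of 8 T cell markers the intensity was 21798 and 22577 with anti-CD3 plus anti-ICOS. It was 25210 to 26853 in anti-CD3 replicates 1 to 3 and 23368 in replicate 4. For 3 other lists the sums of both anti-ICOS arrays lay above those of all anti-CD3 arrays. Monocyte or macrophage markers (6 of 7 measured) summed to 1099 and 1734, against 636 to 649 in anti-CD3 replicates 1 to 3 and 1082 in replicate 4. Mast cell or basophil markers (7 of 7) summed to 580 and 784, against 398 to 446 and, in replicate 4, 388. Neutrophil markers (7 of 7) summed to 545 and 1208, against 451 to 519 and, in replicate 4, 415. The granule genes Mpo and Elane made up the neutrophil gap, Mpo with 7.27 and 9.12 against 6.39 to 6.73 and Elane with 7.17 and 8.60 against 6.75 to 6.84. The median difference of the 7 neutrophil genes was 0.0029, and Ly6g, Camp and Ltf were at -0.12, -0.20 and -0.043. NK cell markers (7 of 7) summed to 1196 and 1132, against 660 to 777 in anti-CD3 replicates 1 to 3 and 1137 in replicate 4. Dendritic cell markers (10 of 10) summed to 13861 and 15065, against 13583 to 14859 and, in replicate 4, 12611. B cell markers (5 of 6) summed to 17789 and 19590, against 16313 to 18153 and, in replicate 4, 19391. The 2 CD8 genes summed to 4352 and 4509, against 3859 to 4128 and, in replicate 4, 4704. Bright H2-Ab1 and Cd74 dominate the dendritic cell sum, and the median difference of its 10 genes was 0.18. Flt3, a growth factor receptor of dendritic cell precursors, rose by 1.26 (limma adjusted p = 0.00321) and differed by 1.16 from replicate 4 alone. It was the only marker of the 8 lists to pass with all 6 arrays. It read 8.05 and 8.26 with anti-CD3 plus anti-ICOS, against 6.86, 6.86 and 6.89 in anti-CD3 replicates 1 to 3 and a mean of 6.90 over all 4 anti-CD3 arrays. Itgax, Siglech and Zbtb46 differed by 0.87, 0.53 and 0.34 (adjusted p = 0.411, 0.0746 and 0.283). In 5 of the 10 dendritic cell genes the anti-ICOS pair exceeded the anti-CD3 group and in 1 it fell short, against 8.51% and 14.7% of all genes. AP-1 genes are also expressed in those cells. The part of other cell types in the values below was not tested, and in such bulk samples fewer cells of a type and less RNA per cell cannot be told apart.

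The comparison asks which AP-1 genes differ between cells given the ICOS signal on top of CD3 and cells given CD3 alone. Jun differed most, at 1.81 times its anti-CD3 level, followed by Fosl2 at 1.31 times. The 95% intervals of Junb, Jund, Fos, Fosb, Fosl1 and Batf included 0, and Batf was high both with anti-ICOS and in anti-CD3 replicate 4. By limma with Benjamini-Hochberg adjustment over all 19937 genes, 0 of the 8 passed an adjusted p of 0.05, where 0.271% of all genes passed. At an unadjusted p under 0.05 there were 2 of 8 (Jun and Fosl2), both higher, against 11.8% of all genes (6.24% higher and 5.56% lower). The anti-ICOS pair exceeded the whole anti-CD3 group in 2 of 8 (Jun and Fosl2), against 8.51% of all genes, and fell short of it in 0 of 8, against 14.7%. The difference was above 0 in 7 of 8, against 42.3% of all genes. The median difference of the 8 genes was 0.17, and that of all genes was -0.031.

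**Figure D1:**
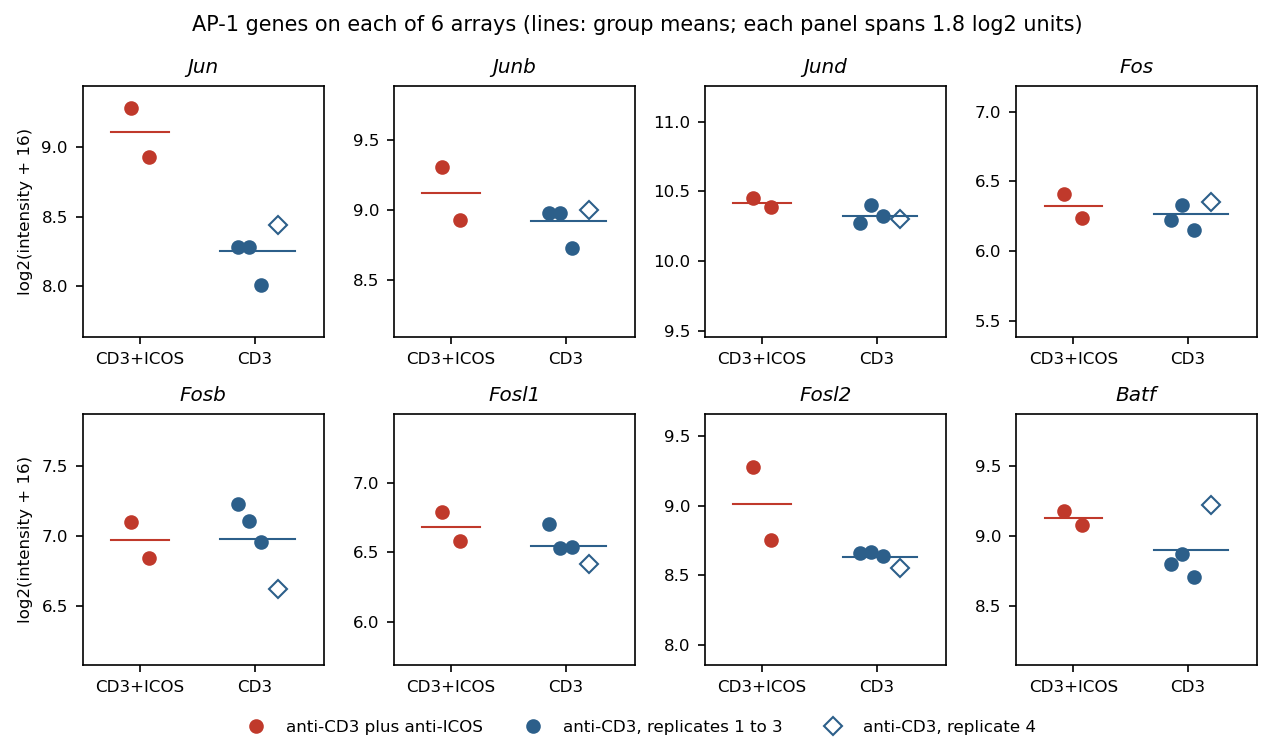
Level of each AP-1 gene as log2(intensity + 16) on the 6 arrays, with anti-CD3 plus anti-ICOS at the left of each panel and anti-CD3 at the right, and lines at the group means. Only in the Jun and Fosl2 panels is the lower anti-ICOS point above every anti-CD3 point, and replicate 4 (open diamond) lies highest in its group for Batf and lowest for Fosb.

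Jun, the founding member of the family and a partner of every Fos protein, had intensities of 606.0 and 471.1 with anti-CD3 plus anti-ICOS and of 295.4, 294.6, 241.5 and 330.3 in anti-CD3 replicates 1 to 4. On the log2 scale it read 9.28 and 8.93 with anti-CD3 plus anti-ICOS, against 8.28, 8.28, 8.01 and 8.44. The lower anti-ICOS array lay above the highest anti-CD3 array, which was replicate 4, and the groups did not overlap. The means were 9.10 ± 0.25 (SD, n = 2) with anti-CD3 plus anti-ICOS and 8.25 ± 0.18 (SD, n = 4) with anti-CD3. The difference was 0.85 ± 0.14 (SE), or 1.81-fold with a 95% interval of 1.43 to 2.28. It did not pass the test over all genes (limma adjusted p = 0.109), and 0.727% of all genes were higher by as much or more. The exact two-sided permutation test gave p = 0.133, the smallest that 2 arrays against 4 allow. Without anti-CD3 replicate 4 Jun was higher by 0.91 (limma adjusted p = 0.00196), and against replicate 4 alone by 0.67 (adjusted p = 0.428). Leaving out any other single array kept Jun short of the threshold, with differences between 0.68 and 1.03 and adjusted p up to 0.875.

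Junb, which can oppose Jun at some promoters and has its own role in T helper cells, had intensities of 618.7 and 472.0 with anti-CD3 plus anti-ICOS and of 490.1, 490.6, 409.0 and 495.3 with anti-CD3. One anti-ICOS array lay above the whole anti-CD3 group and the other within it, and anti-CD3 replicate 3 lay apart on the low side. The log2 means were 9.12 ± 0.27 (SD, n = 2) with anti-CD3 plus anti-ICOS and 8.92 ± 0.13 (SD, n = 4) with anti-CD3. The difference was 0.20 ± 0.13 (SE), with a 95% interval of -0.11 to 0.50 (limma adjusted p = 0.461). It was 0.0063 without anti-ICOS replicate 1 and 0.39 without anti-ICOS replicate 2. Jund, the Jun gene that is expressed steadily in many cells, had intensities of 1385 and 1329 with anti-CD3 plus anti-ICOS and of 1222, 1340, 1260 and 1243 with anti-CD3. It varied least of the 8, over a range of 0.18 on the log2 scale, and its groups overlapped. Its difference was 0.10 ± 0.072 (SE), with a 95% interval of -0.07 to 0.27 (limma adjusted p = 0.483).

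Among the Fos genes, Fos itself was dim on every array. It read 6.41 and 6.24 with anti-CD3 plus anti-ICOS, against 6.22, 6.33, 6.15 and 6.35 with anti-CD3. The groups overlapped, and the difference was 0.062 ± 0.09 (SE), with a 95% interval of -0.15 to 0.27 (limma adjusted p = 0.702). With intensities between 55.2 and 69.0 the offset of 16 shrinks its fold change. Fosb, which shares the immediate early pattern of Fos, read 7.10 and 6.84 with anti-CD3 plus anti-ICOS and 7.23, 7.11, 6.96 and 6.62 with anti-CD3. Replicate 4 was the lowest of the 6 arrays, by 0.48 below the mean of anti-CD3 replicates 1 to 3, and the anti-ICOS arrays lay between it and the highest anti-CD3 array. The difference of Fosb was -0.013 ± 0.17 (SE) with all 6 arrays (limma adjusted p = 0.969), -0.13 without replicate 4 (adjusted p = 0.356) and 0.34 against replicate 4 alone (adjusted p = 0.939), so its sign turned with the choice of anti-CD3 arrays.

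Fosl1 and Fosl2 encode Fra-1 and Fra-2, Fos proteins that appear later than Fos after stimulation of many cell types. Fosl2 read 9.28 and 8.75 with anti-CD3 plus anti-ICOS, against 8.66, 8.67, 8.64 and 8.55 with anti-CD3. The anti-CD3 arrays were close together, replicate 4 being the lowest, and the anti-ICOS arrays were far from each other, the lower one just above the anti-CD3 range. The means were 9.02 ± 0.38 (SD, n = 2) with anti-CD3 plus anti-ICOS and 8.63 ± 0.054 (SD, n = 4) with anti-CD3. The difference was 0.39 ± 0.14 (SE), or 1.31-fold with a 95% interval of 1.04 to 1.65 (limma adjusted p = 0.417). The exact two-sided permutation p was 0.133, the smallest that 2 arrays against 4 allow. Anti-ICOS replicate 1 carried most of it, since the difference was 0.12 without that array and 0.65 without anti-ICOS replicate 2. Fosl1 read 6.79 and 6.58 with anti-CD3 plus anti-ICOS and 6.70, 6.53, 6.54 and 6.42 with anti-CD3, so the groups overlapped. Its difference was 0.14 ± 0.10 (SE), with a 95% interval of -0.11 to 0.38 (limma adjusted p = 0.494), and it was 0.031 without anti-ICOS replicate 1.

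Batf, needed for Th17 and follicular helper cells in mice, read 9.18 and 9.08 with anti-CD3 plus anti-ICOS, against 8.80, 8.87, 8.71 and 9.22 in anti-CD3 replicates 1 to 4. Replicate 4 was the highest of all 6 arrays, and both anti-ICOS arrays lay above replicates 1 to 3. The difference was 0.23 ± 0.14 (SE), with a 95% interval of -0.11 to 0.57 (limma adjusted p = 0.449). Without replicate 4 Batf was higher with anti-ICOS by 0.34 (adjusted p = 0.0136), and against replicate 4 alone it differed by -0.094 (adjusted p = 1.0). Replicate 4 exceeded the mean of anti-CD3 replicates 1 to 3 by 0.43.

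**Figure D2:**
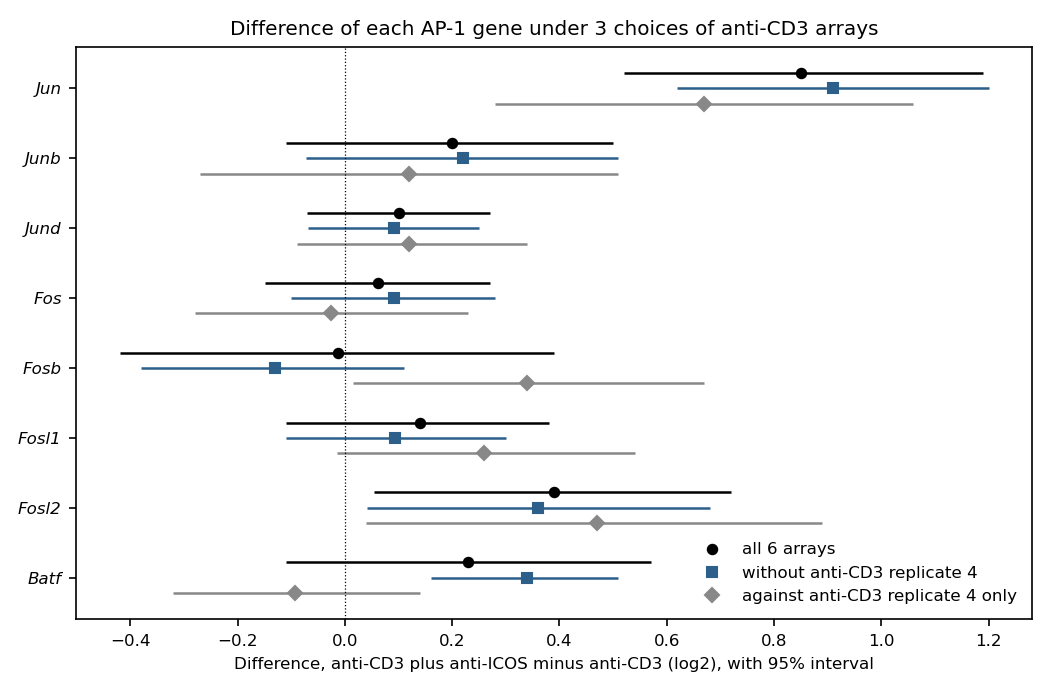
Difference of each AP-1 gene (anti-CD3 plus anti-ICOS less anti-CD3, log2, with its 95% limma interval, unadjusted) with all 6 arrays, without anti-CD3 replicate 4, and against replicate 4 alone. Jun lies between 0.67 and 0.91 under all 3 choices, whereas Fosb, Batf and Fos lie on both sides of 0.

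Without anti-CD3 replicate 4, 2 of the 8 genes passed the test, Jun and Batf, both higher, where 29.7% of all genes passed, 17.1% as higher and 12.7% as lower. The anti-ICOS pair exceeded anti-CD3 replicates 1 to 3 in 3 of 8 (Jun, Fosl2 and Batf), against 28.5% of all genes, and fell short of them in 0 of 8, against 35.1%. With array weights, which gave replicate 4 the least weight, 3 of 8 passed (Jun, Fosl2 and Batf), all higher, where 47.2% of all genes passed, 22.8% as higher and 24.4% as lower. Against replicate 4 alone 0 of 8 passed, where 0.176% of all genes did. Replicate 4 lay above anti-CD3 replicates 1 to 3 in 4 of the 8 (Jun, Junb, Fos and Batf) and below them in 3 (Fosb, Fosl1 and Fosl2), against 34.5% and 42.5% of all genes. The anti-ICOS arrays also differed from each other. All 8 genes read higher in anti-ICOS replicate 1 than in replicate 2, as did 44.5% of all genes, with a median gap of 0.24 for the 8 and of -0.012 for all genes. The gap was widest for Fosl2 at 0.53 and Junb at 0.38, and smallest for Jund at 0.059.

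The level of Jun was also set against each of the other 7 genes within an array. The log2 level of Jun less that of Junb was -0.029 and -0.0025 with anti-CD3 plus anti-ICOS and -0.70, -0.71, -0.72 and -0.56 with anti-CD3, with the arrays of each group close together. Probe sets differ in brightness, so only the difference of this quantity between the groups can be read, and it was 0.66. Set against Batf the difference was 0.63 with all anti-CD3 arrays and 0.76 relative to replicate 4. Set against Fosl2 it was 0.47, the smallest of the 7, and 0.20 relative to replicate 4. The groups did not overlap in any of the 7 pairs, each with an exact two-sided permutation p of 0.133 (0.133 after Benjamini-Hochberg adjustment over the 7, which share Jun). Jun set against any other gene on the array gave the same separation for 96.6% of 19936 genes, so the count is near the background of the whole table.

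The genes whose profile over the 6 arrays came nearest to that of Jun were Rnf19b, Prdm1 and Lgals3. Nearness was measured as the root mean square difference between log2 values, each gene centred on its own mean, and Jun alone of the 8 spanned at least 1 log2 unit, the span set for this search. The differences from Jun were 0.058, 0.065 and 0.072, against a median of 0.46 over 19936 genes. These genes were picked as the nearest on the same 6 arrays. Their likeness to Jun, and a gap between the groups like that of Jun, therefore follow from the choice. Prdm1, which encodes the repressor Blimp-1, read 8.49 and 8.20 with anti-CD3 plus anti-ICOS and 7.42, 7.42, 7.31 and 7.69 with anti-CD3. Lgals3, which encodes galectin-3, read 9.90 and 9.74 against 8.87, 8.94, 8.73 and 9.10 and rose by 0.91 ± 0.11 (SE, limma adjusted p = 0.0412). That call was lost on leaving out any single array but anti-CD3 replicate 4 (adjusted p between 0.106 and 0.351) and against replicate 4 alone (0.108). Rnf19b, a gene of a ubiquitin ligase, differed by 0.78 ± 0.14 (adjusted p = 0.15).

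**Figure D3:**
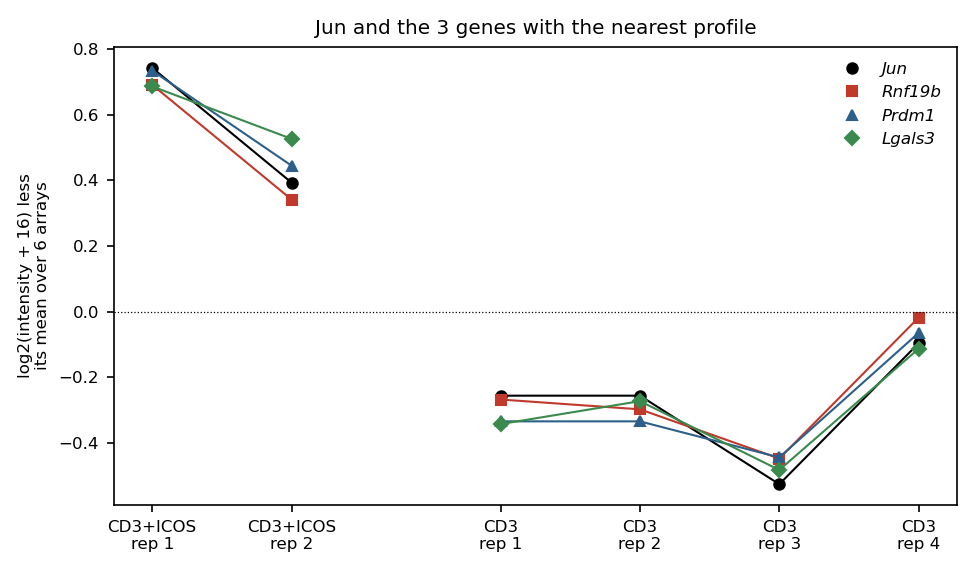
Level of Jun and of the 3 genes nearest to it, as log2(intensity + 16) less the gene's own mean over the 6 arrays, with anti-CD3 plus anti-ICOS at the left and anti-CD3 at the right. All 4 genes lie highest in anti-ICOS replicate 1, lowest in anti-CD3 replicate 3, and higher in anti-CD3 replicate 4 than in anti-CD3 replicates 1 to 3. This likeness follows from how the genes were chosen.

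Around the family, 7 lists of related genes held 114 genes, of which 103 were measured. With all 6 arrays 3 of the 103 rose and 0 fell, and 30 had an unadjusted p under 0.05, where 0.271% and 11.8% of all genes did. Without anti-CD3 replicate 4, 47 were higher and 7 lower, against 17.1% and 12.7% of all genes. The 3 that rose were Nfil3, Gadd45b and Hmox1.

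Among 17 measured relatives with a basic region and leucine zipper, Nfil3, a repressor that shapes cytokine output, rose by 0.82 ± 0.11 (SE, limma adjusted p = 0.045) and 0 fell. Nfil3 read 8.60 and 8.26 with anti-CD3 plus anti-ICOS, against 7.68, 7.61, 7.55 and 7.60 with anti-CD3, and replicate 4 lay among the rest of its group. The call of Nfil3 was lost on leaving out any single array but anti-CD3 replicate 4 (adjusted p between 0.0562 and 0.215) and against replicate 4 alone (0.114). Atf3, a stress-induced partner of Jun proteins, differed by 0.54 ± 0.11 (adjusted p = 0.216) and Maf by 1.08 ± 0.26 (adjusted p = 0.31). For Maf replicate 4 lay apart, 0.87 above the mean of anti-CD3 replicates 1 to 3, whereas for Atf3 it lay 0.057 below it. The closest relatives of Batf, Batf3 and Batf2, differed by 0.18 ± 0.086 and -0.17 ± 0.094 (adjusted p = 0.423 and 0.436). The anti-ICOS pair exceeded the anti-CD3 group in 6 of the 17, against 8.51% of all genes, and fell short of it in 0, against 14.7%. The list median was 0.24. Without replicate 4 there were 9 higher and 1 lower, where 17.1% and 12.7% of all genes were.

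Of 18 measured genes of the MAP kinase cascades that feed AP-1, Gadd45b alone rose, by 1.24 ± 0.14 (SE, limma adjusted p = 0.0275). Gadd45b is an inducible regulator of the kinases upstream of JNK and p38. It read 10.31 and 9.83 with anti-CD3 plus anti-ICOS, against 8.86, 8.76, 8.74 and 8.96 with anti-CD3, a gap wider than either group. The call ended without anti-CD3 replicates 1, 2 or 3 (adjusted p = 0.148, 0.168 and 0.128), without anti-ICOS replicate 1 (0.0831) and against replicate 4 alone (0.105). Its relative Gadd45g differed by 0.40 ± 0.093 (adjusted p = 0.296), and the Ras activator gene Sos1 by 0.63 ± 0.19 (adjusted p = 0.414). Sos1 read 9.10 and 9.09 with anti-CD3 plus anti-ICOS, against 8.43, 8.30, 8.21 and 8.94 with anti-CD3. The JNK genes Mapk8 and Mapk9 differed by 0.17 ± 0.12 and 0.11 ± 0.10 (adjusted p = 0.487 and 0.538). The list median was 0.12. In 6 of the 18 the anti-ICOS pair exceeded the anti-CD3 group (8.51% of all genes), and in 0 it fell short (14.7%). Without replicate 4 there were 7 higher and 1 lower, where 17.1% and 12.7% of all genes were.

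Of 13 measured regulators of Fos and Jun, 0 passed the test with all 6 arrays, and the median was 0.15. Without replicate 4, 6 were higher and 0 lower, where 17.1% and 12.7% of all genes were. Zfp36, whose protein destabilises mRNAs with AU-rich elements, differed by 0.41 ± 0.086 (limma adjusted p = 0.213), and anti-CD3 replicate 3 lay apart on the low side at 8.89. The ubiquitin ligase genes Itch and Fbxw7, whose products target Jun proteins, differed by 0.38 ± 0.15 and 0.29 ± 0.13 (adjusted p = 0.42 and 0.423), and against replicate 4 alone each differed by 0.017. Among 12 partners at composite sites 0 passed with all arrays, and the median was 0.12. Without replicate 4, 5 were higher and 0 lower, against the same 17.1% and 12.7% of all genes. Stat5a, a mediator of cytokine signals, differed by 0.43 ± 0.086 (adjusted p = 0.189), Irf4, the partner of Batf, by 0.29 ± 0.084 (adjusted p = 0.414) and Irf8 by 0.53 ± 0.17 (adjusted p = 0.414). Irf4 read 9.57 and 9.59 with anti-CD3 plus anti-ICOS, above the 9.18 to 9.40 of all anti-CD3 arrays, whereas Irf8 read 11.34 and 11.29 with anti-CD3 plus anti-ICOS and 10.70, 10.65, 10.59 and 11.20 with anti-CD3.

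Genes that carry NFAT and AP-1 sites had a median of 0.27, and 0 of 17 passed the test with all 6 arrays. Without anti-CD3 replicate 4, 9 were higher and 1 lower, where 17.1% and 12.7% of all genes were. Against replicate 4 alone the median was 0.077. The 3 of smallest p were Pdcd1, Ifng and Ccl3, which differed by 0.54 ± 0.10, 1.39 ± 0.34 and 1.37 ± 0.38 (limma adjusted p = 0.144, 0.327 and 0.394). In anti-CD3 replicate 4 these genes lay 0.26, 1.12 and 1.28 above the mean of anti-CD3 replicates 1 to 3. Genes known in mice to depend on BATF and IRF4 had the highest list median, 0.39, with 0 of 13 past the test. Without replicate 4, 8 of these were higher and 1 lower, against the same 17.1% and 12.7% of all genes. Il23r differed by 0.80 ± 0.11 (adjusted p = 0.0514), Prdm1 by 0.89 ± 0.13 (adjusted p = 0.0671) and Il10 by 1.24 ± 0.20 (adjusted p = 0.0958). The anti-ICOS pair exceeded the anti-CD3 group in 7 of these 13 genes and in 7 of the 17 with NFAT and AP-1 sites, against 8.51% of all genes. It fell short in 1 gene of each list, against 14.7%, which was in both the inhibitory receptor gene Ctla4, with 11.17 and 11.11 with anti-CD3 plus anti-ICOS and 11.51, 11.56, 11.46 and 11.24 with anti-CD3.

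Of 15 measured general AP-1 targets, Hmox1, the heme-degrading enzyme heme oxygenase, alone rose, and the list median was -0.025. Without replicate 4 there were 4 higher and 4 lower, where 17.1% and 12.7% of all genes were. Hmox1 read 8.98 and 8.99 with anti-CD3 plus anti-ICOS, against 7.47, 7.72, 7.62 and 7.86 with anti-CD3, a difference of 1.32 ± 0.11 (SE, limma adjusted p = 0.00675). Against replicate 4 alone, a single array, the difference was 1.12. The call of Hmox1 ended without anti-CD3 replicates 2 or 3 (adjusted p = 0.0571 and 0.055). It also ended without anti-ICOS replicates 1 or 2, where the differences were 1.32 and 1.31. Hmox1 is also expressed by macrophages. The monocyte or macrophage markers summed to 1099 and 1734 with anti-CD3 plus anti-ICOS and to 636, 649, 636 and 1082 in anti-CD3 replicates 1 to 4. The part of such cells in the Hmox1 values was not tested. The cyclin gene Ccnd1 differed by 0.38 ± 0.10 (adjusted p = 0.367), and the protease gene Mmp9 by 0.31 ± 0.14 (adjusted p = 0.423), with -0.0034 against replicate 4 alone.

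**Figure D4:**
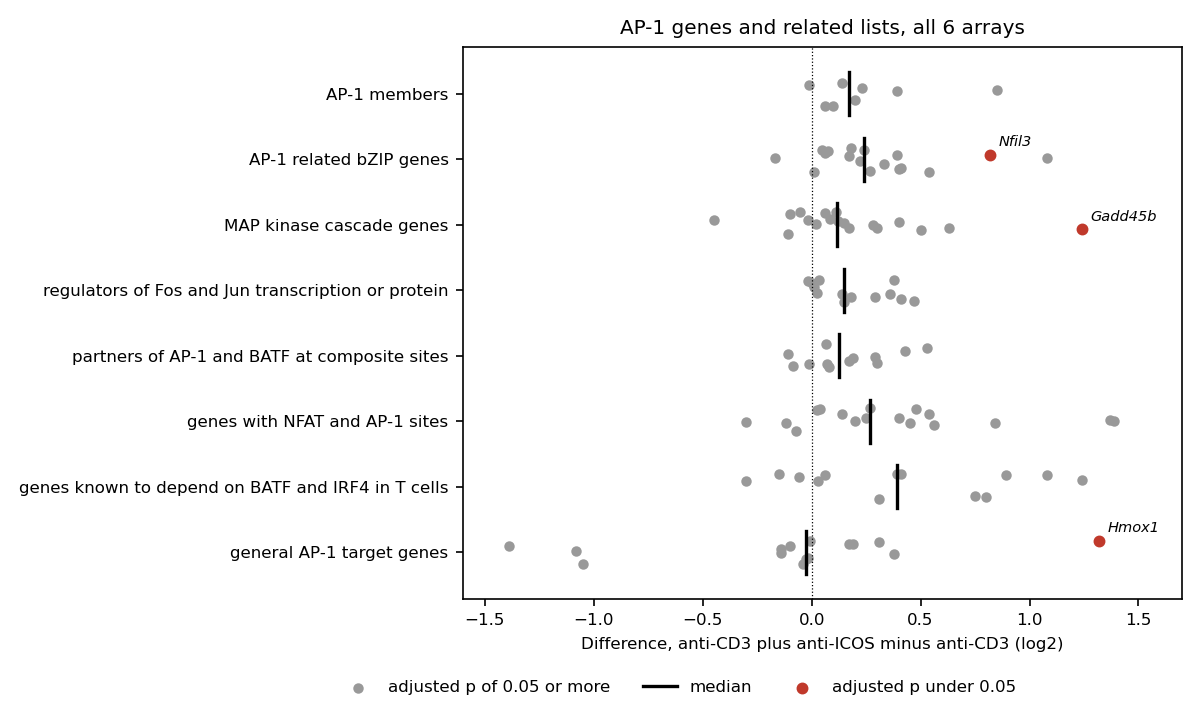
Difference of each AP-1 gene and of each measured gene of the 7 related lists (anti-CD3 plus anti-ICOS less anti-CD3, log2, all 6 arrays), with 1 point per gene, black bars at the list medians, and vertical scatter for legibility only. Red points are the 3 genes past an adjusted p of 0.05, Nfil3, Gadd45b and Hmox1, and the list medians lie between -0.025 and 0.39.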

How the data were processed

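Total RNA (1 ug) of 6 samples was labelled with biotin and read on 1-colour Affymetrix Mouse Gene ST arrays, per the labels' protocols. The authors deposited 1 linear intensity for each probe set and array, from 7.23 to 22176. The submitters' processing notes name MAS5 and no other tool. How background was corrected and arrays were normalized is not given in the sources used here, and the centring stays unknown.

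Groups and replicate numbers came from the sample titles, and no batch is stated. Of 34760 probe sets 21640 had 1 symbol in the platform annotation, 1321 had several and 11799 were unnamed here. The brightest probe set stood for each of 19937 genes, and no filter was used. log2(intensity + 16) was fitted with limma 3.58.1 in R 4.3.3 (lmFit, eBayes, 4 residual degrees of freedom), two-sided, with Benjamini-Hochberg adjustment over all genes and a threshold of 0.05. Differences are anti-CD3 plus anti-ICOS less anti-CD3. A fit against anti-CD3 replicate 4 alone kept replicates 1 to 3 as a group of their own. Its p-values take no spread from replicate 4 itself, which is 1 array. The number of arrays limits the precision.

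The genes named are the 8 members, the 3 of smallest p in each list and the 3 nearest profiles to a member spanning at least 1 log2 unit. Batf2, Batf3, Mapk8, Mapk9 and, below, Mt1, Mt2 and Vegfa were named after their values were seen, as was Ctla4. The marker genes named are examples, and other genes of their lists can differ from them. The members, lists and motifs were chosen with earlier results of these data known. The fitting step was tested on simulated data. Alternatives covered normalization, filter, prior, weights, probe sets, offset, block, single arrays and threshold. Plots used matplotlib 3.10.9.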

Additional observations from a re-analysis of the deposited data

Results flagged for a closer look

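Of 46 values tested in the 4 anti-CD3 arrays (named genes, marker sums and Jun less each other member), 8 had a highest or lowest array whose gap to the nearest other array exceeded Dixon's 95% critical value, as a share of the group's range. Chance gives about 1 in 20 for independent values that were not chosen. Many of these genes were chosen by small p and several values share Jun, so no excess over chance can be read. Junb in anti-CD3 replicate 3 was low at 8.73 and Zfp36 in the same array was low at 8.89. Anti-CD3 replicate 4 was high for Maf at 8.78, Itch at 10.31 and Pdcd1 at 9.08. It was also high for the log2 sum of monocyte or macrophage markers at 10.08, for Jun less Junb at -0.56 and for Jun less Fosb at 1.81. The causes were not tested.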

How the results depend on the processing

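The number of AP-1 genes past the threshold was 0 with all 6 arrays, 3 with array weights (Jun, Fosl2 and Batf), 2 with the replicate block (Jun and Batf), and between 0 and 2 without each array in turn. Of all 19937 genes 54 passed with all 6 arrays, 9413 with array weights, 6551 with the block and 5930 without anti-CD3 replicate 4. The block estimate rests on the differences between same-numbered arrays of replicates 1 and 2. Anti-CD3 replicates 3 and 4 have no anti-ICOS partner and do not enter it, so the block too leaves out replicate 4. The labels do not say that a number marks a shared animal or day. Deviations of same-numbered arrays from their group means correlated at -0.0389 and 0.101. With 2 anti-ICOS arrays those deviations mirror each other, so the correlations cannot decide whether arrays are paired. The number of AP-1 genes whose groups did not overlap was 2 (23.3% of all genes), against 1 with quantile normalization (23.0%), 6 against replicate 4 alone (72.3%), and between 2 and 6 without each array in turn. The 6 came without anti-ICOS replicate 2 (42.5%), and single arrays separate more easily. Fos was at 0.15 without anti-ICOS replicate 2, at -0.023 without anti-ICOS replicate 1 and at -0.026 against replicate 4 alone. Fosb was at -0.14 without anti-ICOS replicate 1, at 0.016 with quantile normalization, at 0.071, 0.029 and 0.12 without anti-CD3 replicate 1, anti-CD3 replicate 2 or anti-ICOS replicate 2, and at 0.34 against replicate 4 alone. Against replicate 4 alone Batf was at -0.094 and Mmp9 at -0.0034. Jun lay between 0.67 and 1.03 in all 18 alternatives and passed in 3 of them. The calls of Nfil3, Gadd45b and Lgals3 ended over every probe set (adjusted p = 0.16, 0.131 and 0.16) and with an offset of 64 (0.0917, 0.0685 and 0.0759), those of Nfil3 and Lgals3 with median centring (0.0583 and 0.0527) and that of Nfil3 with quantile normalization (0.0616). The causes were not tested. In the order of the report, the 7 lists had 11, 11, 8, 7, 12, 10 and 8 genes past the threshold with array weights, against 1, 1, 0, 0, 0, 0 and 1 with all arrays weighted alike. Quantile normalization put the median of all genes at -0.0092 in place of -0.031 and moved Batf to 0.12, Junb to 0.092, Jund to 0.054 and Fos to 0.15, with none past the threshold. Il23r, Il10 and Prdm1 passed with array weights, with the block and without anti-CD3 replicate 4. Il23r also passed with the trended prior (adjusted p = 0.0321), the mean of probe sets (0.0495) and an offset of 1 (0.0377), as did Prdm1 with an offset of 1 (0.0486). With an offset of 64 the difference of Il23r was 0.51 and that of Il10 0.81. Depth is unknown for arrays, and Fos and Fosl1, the dimmest members, are the most compressed by the offset.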

Other observations

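Within the list of general AP-1 targets, the metallothionein genes Mt1 and Mt2, which bind zinc, and Vegfa, a growth factor gene induced by low oxygen, were low on both anti-ICOS arrays and in anti-CD3 replicate 4. Mt2 read 10.93 and 10.26 with anti-CD3 plus anti-ICOS, against 12.65, 12.64 and 12.50 in anti-CD3 replicates 1 to 3 and 10.15 in replicate 4. Mt1 read 9.82 and 9.59, against 11.20, 11.41 and 11.28 in anti-CD3 replicates 1 to 3 and 9.13 in replicate 4. Vegfa read 7.78 and 7.69, against 9.24, 9.37 and 9.17 in anti-CD3 replicates 1 to 3 and 7.47 in replicate 4. With all 6 arrays none of these 3 passed the test (limma adjusted p = 0.423 for Mt2, 0.439 for Mt1 and 0.423 for Vegfa), and without replicate 4 all 3 did (adjusted p = 0.000266, 7.55e-05 and 5.2e-05). They were chosen after their values were seen.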
